A study of Arabidopsis thaliana with 6 samples.

Results

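In 4 of the 6 Arabidopsis seedling arrays of this series, the signals differed along a direction that crossed the genotypes. After the mean of each genotype was removed, the 35S::OsHOX24 replicate 3 array deviated in the same direction as the WT replicate 2 array (pair A, r = 0.69), and the 35S::OsHOX24 replicate 2 array in the same direction as the WT replicate 3 array (pair B, r = 0.62). These 4 arrays are described here. The pairs are not a treatment or a label of the study. They were chosen from the log2 signals themselves, so every difference between pair A and pair B is a description of 4 arrays and carries no test. Each pair holds 1 array of each genotype, and the difference between pairs was taken within each genotype and then averaged, which keeps genotype out of it.

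All plants were 10 day old Columbia seedlings grown on solid medium under a day and night cycle, with no stress applied. In the 35S::OsHOX24 group a rice homeodomain-leucine zipper gene, OsHOX24, was driven by the CaMV 35S promoter, which is active in most tissues. All 3 of these arrays came from 1 homozygous transgenic line, so effects of the gene cannot be told apart from effects of that line. The WT group was the untransformed parent. Each genotype had 3 biological replicates, each on 1 Affymetrix array, and the rice transgene was not measured here. RNA of light-harvesting and Rubisco activase genes and of the root beta-glucosidase gene PYK10 was abundant in every array. LHCB4.1 lay between 13.9 and 14.6, RCA between 14.3 and 14.7 and PYK10 between 13.4 and 14.1 on the log2 scale. Genes of green tissue and of root were thus both expressed at a high level. The shoot markers measured, and the other root markers measured, lay below the median signal.

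Seedling transcriptomes carry large sets of genes that follow growth, the time of day, nutrient supply and stress together. Expansins and xyloglucan endotransglucosylases loosen cell walls during growth, glutathione transferases and UDP-glycosyltransferases attach glutathione or sugars to small molecules, and A-type response regulators are induced quickly by cytokinin. The plastid keeps its own small genome for photosystem, ribosome and RNA polymerase subunits, and its transcripts are mostly not polyadenylated.

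Of 22746 probe sets other than controls, the 11373 with a mean signal above the median of 7.26 (log2, over the 4 arrays) were described. The last probe set kept had a mean of 7.2633 and the first one left out 7.2631. Between the pairs, 721 probe sets (6.34%) were at least 2-fold higher in pair A, with both pair A arrays above both pair B arrays, and 398 (3.5%) were at least 2-fold lower. The probe sets nearest the 2-fold limit differed by 1.00091 (kept) and 0.99858 (left out) on the higher side, and by 1.00002 and 0.999996 on the lower side. At 4-fold or more there were 111 higher and 17 lower, and at 8-fold or more 11 and 3. The differences of 4-fold or more lay mainly on the higher side. Of all probe sets above the median, 63.0% did not overlap between the pairs at any fold, 2979 higher and 4183 lower in pair A, and the median difference was -0.08.

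The size of this direction can be set beside the other contrasts of the same 4 arrays. Over probe sets the pair difference had an SD of 0.64 on the log2 scale, the difference between 35S::OsHOX24 and WT an SD of 0.30 and the difference between replicates 2 and 3 an SD of 0.27. The 35S::OsHOX24 difference (replicate 3 minus replicate 2) and the WT difference (replicate 2 minus replicate 3) were alike in spread, with an SD of 0.70 and 0.69. Across probe sets their Pearson r was 0.70 and their Spearman rho 0.66. The pairs were named for this likeness, and probe sets of 1 array share its RNA and its scaling, so no p is given. Only 3 probe sets went at least 2-fold in opposite directions in the 2 genotypes.

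**Figure D1:**
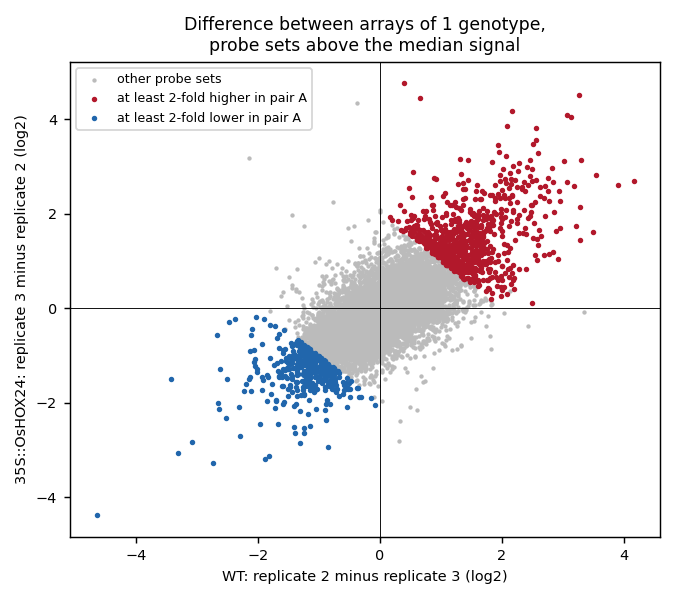
Each point is 1 of 11373 probe sets above the median signal. The horizontal axis is WT replicate 2 minus replicate 3 and the vertical axis 35S::OsHOX24 replicate 3 minus replicate 2, both in log2. The cloud runs along the diagonal (Pearson r 0.70), and the 721 probe sets at least 2-fold higher in pair A reach farther out than the 398 lower ones.

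By gene, 6029 genes had a probe set above the median. Of these, 325 (5.39%) were at least 2-fold higher in pair A and 238 (3.95%) at least 2-fold lower, without overlap. Without overlap at any fold, 24.8% of the 6029 genes were higher and 38.7% lower, and nothing is read from these shares, since the same 4 arrays chose the pairs. A symbol other than the locus tag was known for 63 of the higher and 44 of the lower genes. The median difference over all 6029 genes was -0.11.

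The genes with the widest gap on the higher side were mostly known only by locus tag. AT4G22490 stood at 12.19 and 12.20 in pair A (35S::OsHOX24, then WT, as in all pairs of values below), against 8.11 and 9.13 in pair B, a difference of 3.58 or 11.9-fold. AT2G43610 stood at 8.87 and 10.07 in pair A and at 6.16 and 5.92 in pair B, or 10.8-fold. Both genes were near their pair B level in the replicate 1 arrays, at 9.06 and 9.41 for AT4G22490 and at 5.36 and 5.78 for AT2G43610. AT3G16670 behaved in the same way, at 9.43 and 9.98 in pair A, 6.61 and 6.45 in pair B and 6.29 and 6.38 in the replicate 1 arrays. AT3G53980, in contrast, stood at 11.60 and 11.61 in pair A and 8.84 and 8.86 in pair B, with the replicate 1 arrays closer to pair A at 10.63 and 11.04. AT5G51440, AT1G26800, AT1G67330, AT3G22620 and AT4G33550 were 6.18-fold to 9.55-fold higher.

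Some of the higher genes were neighbours on a chromosome. AT5G64100 was at 10.85 and 10.82 in pair A and 8.36 and 7.89 in pair B, and the next gene, AT5G64110, at 8.80 and 9.25 in pair A and 6.30 and 6.50 in pair B. The third of the row, AT5G64120, which encodes peroxidase PRX71, was also among the higher genes. Of 1280 pairs of adjacent nuclear genes both above the median, the first gene was higher in 66 (5.16%), and in 10 of these 66 (15.2%) the next gene was higher as well. On the lower side the next gene was lower too in 5 of 54 (9.26%), against 4.22% of all first genes. The adjacent higher genes include GSTU25 with GSTU26 and XTH18 with XTH19, which are gene copies of related sequence, and signal shared between such copies was not tested.

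Cell wall loosening genes were among those higher in pair A. Of the 26 expansin and xyloglucan endotransglucosylase genes measured, 10 lay above the median, and 5 of these were at least 2-fold higher (5.39% over all genes) and 0 lower (3.95% over all genes), with a median difference of 0.93 beside -0.11 for all genes. In RNA of whole seedlings, more cells of a type and more RNA per cell cannot be told apart. The expansin gene EXPA4 stood at 10.07 and 9.80 in pair A, against 7.49 and 7.09 in pair B, or 6.26-fold higher. EXPA8 stood at 10.36 and 10.21 in pair A, against 8.05 and 8.86 in pair B. EXPB3 stood at 9.31 and 9.21 in pair A, against 7.81 and 7.72 in pair B. All 3 expansins were separated between the pairs by more than the genotypes were within a pair. The replicate 1 arrays placed them differently, with EXPB3 at 9.37 and 9.25, as in pair A, and EXPA8 at 8.51 and 8.09, as in pair B. XTH18 and XTH19, both for xyloglucan endotransglucosylases, were 2.15-fold and 2.12-fold higher. The expansin-like genes EXLA1 and EXLA3 went the other way, at -0.66 and -0.79.

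Conjugation and redox enzymes formed another higher group. The families in this and the next paragraph were picked after their values were seen, so their counts only describe what the higher genes contain, beside 5.39% of all genes higher, 3.95% lower and 24.8% higher without overlap at any fold. Of 8 glutathione transferase genes above the median, 4 were at least 2-fold higher and all 8 were higher without overlap, with a median of 0.97. GSTU25 stood at 8.55 and 9.39 in pair A, against 5.58 and 6.57 in pair B, or 7.43-fold higher. GSTU22 was at 9.06 and 9.77 in pair A, against 7.32 and 7.66 in pair B. GSTU26 was at 8.22 and 8.25 in pair A, against 6.58 and 6.68 in pair B. GSTU25 was higher in WT than in 35S::OsHOX24 within both pairs and in the replicate 1 arrays (7.21 in 35S::OsHOX24 and 9.53 in WT). Over all 6 arrays its genotype difference was -1.39 ± 1.07 (SE) and was not called (limma, unadjusted p = 0.24). Of 4 genes for methionine sulfoxide reductase B, which repairs oxidised methionine, 3 were higher. MSRB6 stood at 10.02 and 9.30 in pair A, against 7.68 and 7.24 in pair B, or 4.59-fold higher, and MSRB9 and MSRB5 were 3.02-fold and 2.87-fold higher. The cytochrome P450 genes CYP71B23 (3.99-fold) and CYP71B5 (2.95-fold) were higher, out of 5 above the median. Of 21 UDP-glycosyltransferase genes, 4 were higher and UGT76C2, for a cytokinin glucosyltransferase, was lower at 8.11 and 8.44 in pair A, against 9.29 and 9.57 in pair B. UGT72E1, whose product glucosylates phenylpropanoids, was at 9.16 and 9.39 in pair A, against 7.63 and 7.39 in pair B.

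Single genes of metabolism and transport were also higher. In the flavonoid list 0 of the 3 genes measured lay above the median. CHIL, for a chalcone isomerase-like protein of the flavonoid pathway, stood at 9.82 and 9.58 in pair A, against 7.72 and 7.59 in pair B, or 4.12-fold higher. HCT, which encodes a hydroxycinnamoyl transferase of lignin synthesis, stood at 11.71 and 11.65 in pair A, against 10.63 and 10.52 in pair B. MGL (methionine gamma-lyase) was 4.21-fold higher, GTR2 and GTR1 (glucosinolate transporters) 3.29-fold and 2.35-fold, APS3 (ATP sulfurylase) 2.56-fold, BCAT4 (methionine chain elongation) 2.42-fold and MMT (methionine S-methyltransferase) 2.06-fold. Of 5 SWEET sugar transporter genes above the median, SWEET11, SWEET16 and SWEET17 were higher by 2.66-fold, 2.29-fold and 2.28-fold. Prenylated RAB acceptor genes, which act in membrane traffic, had 3 of 9 members higher. The dehydrin gene LTI30 stood at 10.47 and 10.88 in pair A, against 8.43 and 9.02 in pair B, and BHLH101, a transcription factor gene of the iron deficiency response, was 3.89-fold higher. WES1 and GH3.17, for enzymes that couple auxin to amino acids, were 2.53-fold and 2.14-fold higher, GH3.17 mainly within 35S::OsHOX24 (1.73, and 0.47 within WT).

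**Figure D2:**
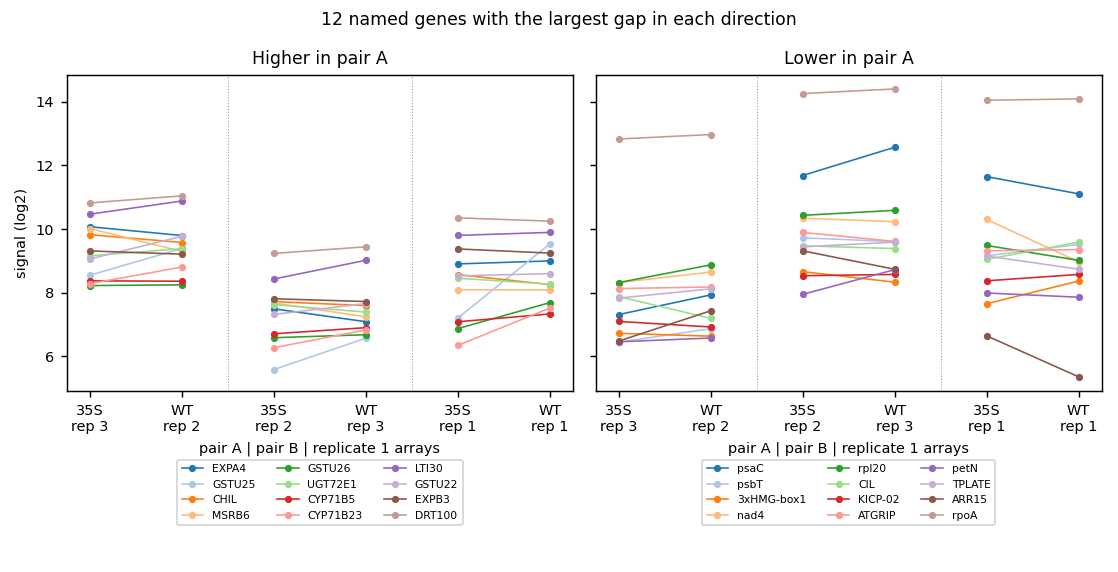
Log2 signal of the 12 genes with a symbol and the widest gap in each direction, by array, with lines joining the 35S::OsHOX24 and WT arrays of a pair and of replicate 1. Left panel, genes higher in pair A (EXPA4 at 10.07 and 9.80, against 7.49 and 7.09 in pair B). Right panel, genes lower in pair A (psaC at 7.31 and 7.93, against 11.68 and 12.57).

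The nuclear genes described on the lower side were picked after their values were seen, and no list was tested for them. 3xHMG-box1, for a protein that binds chromosomes in mitosis, stood at 6.72 and 6.63 in pair A, against 8.66 and 8.33 in pair B. TOPII, for DNA topoisomerase II, stood at 8.33 and 8.26 in pair A, against 10.15 and 9.50 in pair B, and 3xHMG-box2 was 2.29-fold lower. The kinesin gene KICP-02 was at 7.10 and 6.92 in pair A, against 8.53 and 8.57 in pair B, and ATMAP65-6, for a microtubule bundling protein, was 2.14-fold lower. In the lists of histones (4 above the median) and cell division (1 above the median) 0 genes were called. Over all genes 5.39% were higher and 3.95% lower, so with so few members a count of 0 is little apart from the background. Of the 4 histone H2B genes above the median, HTB11 was at 0.87 and HTB2 at -0.82, and PRL, a replication licensing gene and the 1 cell division gene measured, was at -0.49.

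The cytokinin-induced response regulator genes ARR15 and RR16 were both lower. ARR15 stood at 6.48 and 7.43 in pair A, against 9.32 and 8.74 in pair B, and at 6.65 and 5.36 in the replicate 1 arrays. RR16 stood at 6.16 and 7.32 in pair A, against 8.64 and 8.46 in pair B. For ARR15 both replicate 1 arrays were thus below the pair A mean of 6.95. TPLATE, for a subunit of an endocytic adaptor complex, was at 7.83 and 8.12 in pair A, against 9.44 and 9.59 in pair B. ATGRIP, for a Golgi protein, was 3.03-fold lower, and the regulators ULT1, CIL and BPC1 were 3.10-fold, 3.72-fold and 2.26-fold lower. The nuclear genes with the widest gap were again known by locus tag. AT5G40450 stood at 8.45 and 8.20 in pair A, against 11.52 and 11.51 in pair B, or 9.07-fold lower, with the replicate 1 arrays between at 9.69 and 10.39. AT1G29270 was 7.73-fold lower, at 5.95 and 5.67 in pair A, against 8.77 and 8.75 in pair B. The mitochondrial gene nad4, for a subunit of complex I, was at 8.32 and 8.65 in pair A, against 10.34 and 10.23 in pair B.

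Of 69 plastid-encoded genes measured, 60 lay above the median, and 19 of these were lower (3.95% over all genes) and 4 higher (5.39% over all genes). Their median difference was -0.59 as deposited and -0.31 after quantile normalization. The widest gap of all belonged to psaC, for an iron-sulfur subunit of photosystem I, at 7.31 and 7.93 in pair A, against 11.68 and 12.57 in pair B, or 22.7-fold lower. In the replicate 1 arrays psaC was at 11.65 and 11.11, near pair B. The photosystem II gene psbT was 8.05-fold lower, at 6.44 and 6.87 in pair A, against 9.73 and 9.61 in pair B.

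By role, plastid ribosomal protein genes were lower in 8 of 14 above the median, with a median of -1.06. Among them rpl20 stood at 8.32 and 8.87 in pair A, against 10.43 and 10.59 in pair B, and rpl14 at 12.69 and 12.59 in pair A, against 13.96 and 13.99 in pair B. RNA polymerase subunit genes had 2 of 3 lower, rpoA at 12.83 and 12.97 in pair A, against 14.26 and 14.41 in pair B, and rpoC2 by 2.87-fold. The photosystem and electron transport genes were mixed. Photosystem I had psaC lower and psaJ higher of 4, photosystem II had 2 lower and 3 higher of 14, the cytochrome b6f complex 2 lower of 4 (petN and petL) and ATP synthase 2 lower of 6 (atpH and atpF). Neither rbcL (-0.31), for the large subunit of Rubisco, nor any of the 7 genes of the NADH dehydrogenase-like complex was called. The higher calls for psbI and psbK rest on 1 genotype. psbI stood at 12.57 and 8.61 in pair A, against 8.11 and 7.95 in pair B. psbK stood at 12.40 and 8.18 in pair A, against 7.63 and 7.80 in pair B. Among the arrays of the 2 pairs the 35S::OsHOX24 replicate 3 array alone stood apart. In the replicate 1 arrays 35S::OsHOX24 was above WT too, at 10.66 and 8.44 for psbI and at 9.40 and 7.53 for psbK. Among the lower calls, petL and atpF rest mainly on WT, with differences of -0.23 and -0.44 within 35S::OsHOX24 and of -2.38 and -2.10 within WT. The call for the ribosomal gene rpl36 rests on 35S::OsHOX24 (-2.05, and -0.09 within WT).

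**Figure D3:**
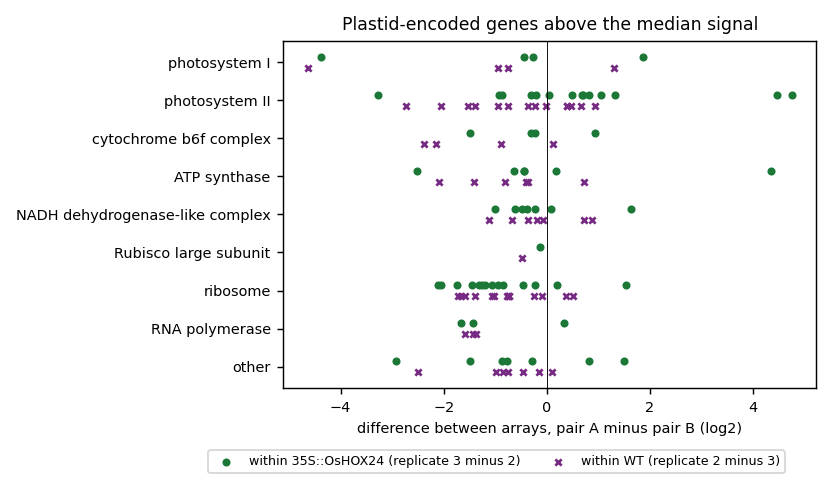
Difference between arrays for the 60 plastid-encoded genes above the median, by role. Circles are 35S::OsHOX24 (replicate 3 minus replicate 2) and crosses WT (replicate 2 minus replicate 3), in log2. Ribosomal protein genes lie mostly left of 0 (8 of 14 at least 2-fold lower in pair A), and photosystem II genes lie on both sides.

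Other lists of processes had few measured members, beside shares of 5.39% higher and 3.95% lower over all genes, so that a count of 0 is little apart from the background. Of 32 nuclear photosynthesis genes listed, 4 were measured and above the median and 0 were called (median -0.11). Of 25 dark and carbon starvation genes, 6 were measured, 5 lay above the median and 0 were called (median -0.26). Of 26 starch genes, 5 were measured, 3 lay above the median and 0 were called (median -0.30). Of 21 heat shock genes, 5 were measured and 2 lay above the median, AT5G51440, at 9.03 and 10.18 in pair A, against 6.42 and 6.27 in pair B, and AT5G37670, at 7.66 and 7.64 in pair A, against 7.24 and 7.35 in pair B. Neither overlapped between the pairs, and AT5G51440 was the 1 called. In the cold and dehydration list LTI30 was the 1 gene called of 4, with COR47 at 0.70 and COR27 at -0.73. In the touch and wounding list CML38, a calmodulin-like gene, was lower, at 7.40 and 6.78 in pair A, against 7.59 and 8.82 in pair B, with most of the difference within WT (-2.04, and -0.19 within 35S::OsHOX24), and the zinc finger gene STZ at -0.95 was not called. Only 1 gene of each clock list was measured, and both were below the median signal. The evening clock gene GI stood at 6.61 and 7.77 in pair A and at 6.39 and 6.63 in pair B, and at 9.90 and 10.36 in the replicate 1 arrays. Its replicate 1 level thus lay above both pairs. Genes of the seed, flower, nitrate, phosphate, sulfur and iron lists had no probe set with a gene name here, so these lists gave no count.

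The 2 replicate 1 arrays did not enter the signal filter or the pair difference. They did enter the mean that picked the probe set of each gene. Over the 325 higher genes, the median signal was 9.48 and 9.51 in pair A, 7.94 and 7.91 in pair B and 8.57 and 8.61 in the replicate 1 arrays of 35S::OsHOX24 and WT. On a scale where the pair B mean is 0 and the pair A mean is 1, the median position was 0.30 in 35S::OsHOX24 and 0.38 in WT. Over the 238 lower genes it was 0.42 and 0.30, and over all 6029 genes 0.35 and 0.36. Among the higher genes 192 (35S::OsHOX24) and 171 (WT) lay between the pairs, among the lower genes 147 and 145, and among all 6029 genes 1341 and 1270. Genes without a wide gap between the pairs leave little room between them, and their position, scaled by that gap, is unsteady. Neither the counts nor the median positions of the called genes are therefore compared with those of all genes. Within replicate 1, 35S::OsHOX24 was at least 2-fold above WT for 13 of the 325 higher genes (4%) and at least 2-fold below for 23 (7.08%), against 0.813% and 1.64% of all 6029 genes. For the lower genes these counts were 7 (2.94%) and 12 (5.04%). Both sets were chosen for wide differences between arrays, so nothing is read from shares larger than those of all genes.

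Control probe sets that the rule left out also differed between the pairs. Probe sets near the 3′ end, in the middle and near the 5′ end of the GAPDH transcript show how far the labelled RNA reaches toward the 5′ end. The 3′ signal exceeded the middle one by 0.11 and -0.01 in pair A, by 1.43 and 1.76 in pair B and by 0.68 and 0.82 in the replicate 1 arrays. The 3′ signal exceeded the 5′ one by 2.39 and 1.63 in pair A, by 3.63 and 4.80 in pair B and by 3.29 and 3.25 in the replicate 1 arrays. Pair A thus had relatively more signal away from the 3′ end of GAPDH than pair B. For actin the 3′ to middle difference was 1.33 and 0.99 in pair A, against 1.85 and 2.39 in pair B, and for ubiquitin 2.03 and 1.51 in pair A, against 2.35 and 2.78 in pair B, while their 3′ to 5′ differences overlapped. The 18 hybridization spike-in probe sets averaged 9.62 and 9.90 in pair A, against 10.23 and 10.65 in pair B, and 16 of them were lower in pair A without overlap. The poly-A spike-ins averaged 7.24 and 9.08 in pair A, against 9.77 and 8.83 in pair B. These averages overlapped, and 9 of the 24 probe sets were lower in pair A without overlap. The part of RNA integrity, labelling and hybridization in the gene differences was not tested.

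**Figure D4:**
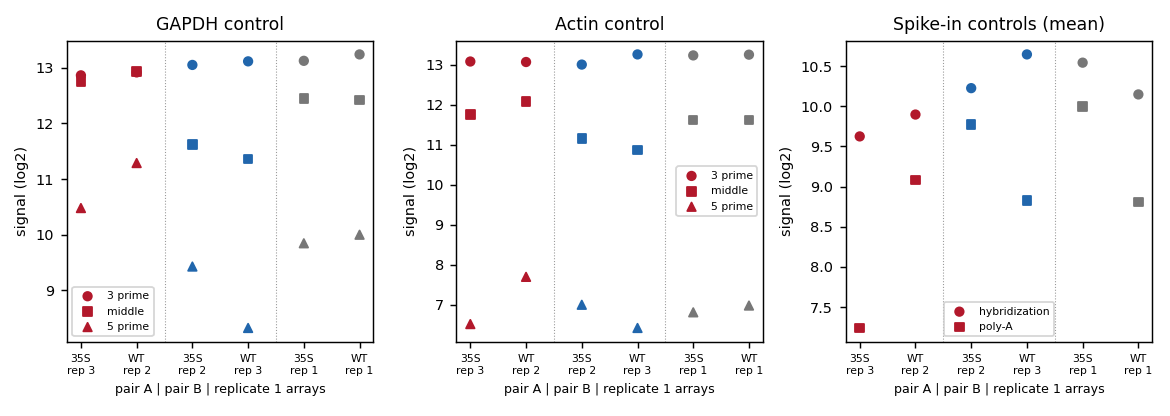
Log2 signal of control probe sets by array, with pair A left, pair B in the middle and the replicate 1 arrays right. The middle GAPDH signal meets the 3′ signal in pair A (differences of 0.11 and -0.01) and falls below it in pair B (1.43 and 1.76). The mean hybridization spike-in signal is lower in pair A (9.62 and 9.90, against 10.23 and 10.65).

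The genes called also differed by length. The annotated span of each nuclear gene, introns included, was taken from the TAIR10.1 assembly for 5956 genes and divided into 5 groups of like size. In the shortest group (78 to 1576 bases) 11.0% of genes were higher in pair A and 2.60% lower, and in the longest group (3486 to 26499 bases) 1.85% were higher and 6.57% lower. The median difference was 0.02 in the shortest and -0.27 in the longest group. Across genes, Spearman's rho of length with the pair difference was -0.20, being -0.29 within 35S::OsHOX24 and -0.09 within WT, and genes of 1 array share its RNA. Short genes were thus over-represented among the higher genes and long genes among the lower ones. The part of gene length in any single gene's difference was not tested.

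**Figure D5:**
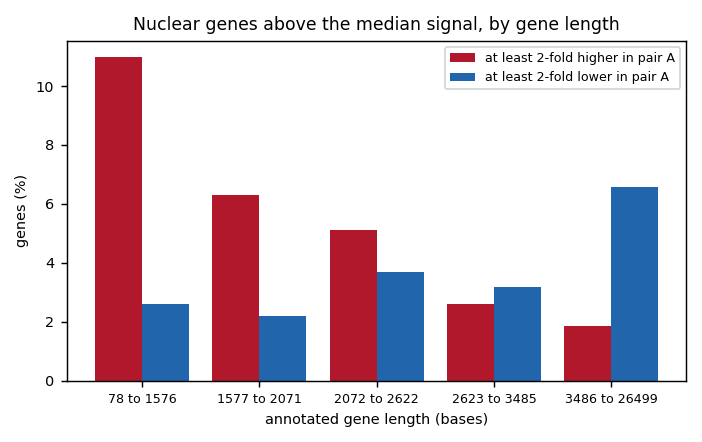
Share of nuclear genes at least 2-fold higher (left bar) and at least 2-fold lower (right bar) in pair A, in % of each group of annotated gene length. The share higher falls with length from 11.0% to 1.85%, and the share lower is 6.57% in the longest group.

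The pair contrast was last set beside the comparison of the study, 35S::OsHOX24 against WT over all 6 arrays, which the choice of pairs balanced out. At 2-fold or more and an unadjusted p of 0.05 or less in limma, 575 of 22746 probe sets (2.53%) were called, 208 higher and 367 lower in 35S::OsHOX24. After Benjamini-Hochberg adjustment 0 remained. An unadjusted limma p under 0.05 was found for 785 of the 22746 probe sets, a smaller share than 0.05. Of the 325 genes higher in pair A, 1 (0.308%) was called between genotypes, AT4G16260, at 7.93, 6.90 and 7.37 in 35S::OsHOX24 (replicates 3, 2 and 1) and 8.95, 7.89 and 9.02 in WT (replicates 2, 3 and 1). Of the 238 lower genes 0 were called, and of all 6029 genes 16 (0.265%), 4 higher (0.0663%) and 12 lower (0.199%) in 35S::OsHOX24. The genes of the pair contrast were chosen for wide differences between arrays of 1 genotype, which enter the error of this fit. Its median SE was 0.57 for the higher genes, 0.51 for the lower genes and 0.28 for all genes. Few genotype calls among them follow from that choice, so nothing is read from these counts. With the array pairs as a block, 0 of the higher genes were called higher and 7 lower in 35S::OsHOX24, of the lower genes 2 and 4, and of all 6029 genes 7 and 22. The block is the contrast that chose these genes, so nothing is read from this gain in calls. EXPA4, without the block, differed by 0.20 ± 0.91 (SE) between 35S::OsHOX24 and WT (limma, adjusted p = 1, 3 arrays each), beside a pair difference of 2.65.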

How the data were processed

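Total RNA of whole seedlings was labelled as biotinylated cRNA and hybridized to Affymetrix 3′ expression arrays, 1 per sample. The authors summarised each probe set with MAS5, per the labels, and the deposited values are log2 signals. Every array has nearly the same trimmed mean on the linear scale, which scales out total RNA. From 163 to 511 values per array are listed at 0, and array medians lie between 7.24 and 7.42. The number of arrays limits the precision. No scanner files were used.

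The 64 control probe sets were left out of all counts. Gene names came from the platform annotation, updated through RefSeq (TAIR10.1). Of 22746 probe sets, 13513 named 1 gene, 503 several and 8730 none here, and 13436 matched RefSeq. Each gene was given the probe set with the highest mean signal over all 6 arrays. The pair difference is the mean of the within-genotype differences. A gene was counted where the pairs did not overlap and differed by at least 2-fold (1 on the log2 scale). Genotypes were compared with limma 3.58.1 in R 4.3.3 on all 6 arrays at the study's thresholds, checked on simulated data. The simulated arrays were independent of each other, so the check does not cover the direction shared by the pairs. Genes named are the 12 with the widest gap in each direction, up to 4 members by size of difference from each list with at least 3 genes above the median, and both clock genes measured. Other genes named, with their families, were picked after their values were seen. The members and the lists were chosen with earlier results of these data known. Alternatives were other scalings, an offset of 16 on the signal, other signal filters, blocks and leaving out each array.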

Additional observations from a re-analysis of the deposited data

How the results depend on the processing

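The pair counts (721 higher, 398 lower) stayed within 1.5 times under quantile normalization, median centring, an offset of 16 on the signal and without cross-hybridizing probe sets. With all 22746 non-control probe sets they were 1968 higher and 1772 lower, and among the 5687 above the upper quartile of signal 326 and 147. Of the calls, 52.6% and 68.9% were on the higher side, against 64.4% as reported. The excess of higher calls thus depended on the signal filter and was smaller with low-signal probe sets included. Leaving out 1 array at a time gave 770 to 899 higher and 495 to 623 lower. There the fold came from the other genotype alone, and only 1 array of a pair had to lie beyond both of the other. This rule is looser, so these counts do not show dependence on single arrays. Without WT replicate 2 or WT replicate 3 the lower count was 623 or 619, over 1.5 times the reported one. Of 53 named genes, 53 kept the sign of their pair difference with the offset, 51 with quantile normalization, 49 within 35S::OsHOX24 alone and 51 within WT alone. Those that changed sign were not among the genes called. Within 1 genotype a called gene could not change sign, since a call needs both arrays of 1 pair above both of the other. The 2 settings within 1 genotype are therefore no check of the called genes. Of 15 lists, 15, 14, 14 and 14 kept the sign of their median, and that of the plastid genes was -0.31 with quantile normalization, against -0.59.

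For the genotype calls (575 of 22746), the methods' t-test gave 292 and the offset of 16 gave 114. The 11373 probe sets above the median signal gave 36, a much larger fall than that in the number of probe sets tested. The cause of these changes was not tested. Leaving out 1 array at a time gave 615 to 751. Quantile normalization gave 264 higher and 303 lower, against 208 and 367. With the array pairs as a block there were 727 calls and with a replicate block 678. The replicate numbers 2 and 3 did not pair the arrays, while the 2 replicate 1 arrays deviated in the same direction. After removing genotype means, same-numbered arrays correlated at 0.45 (replicate 1), -0.52 (replicate 2) and -0.54 (replicate 3), against 0.69 within pair A and 0.62 within pair B. Within a genotype the deviations from the mean cancel out, so the replicate 1 value is fixed by the arrays of pairs A and B. It is not separate evidence that the replicate 1 arrays form a pair.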
